A study of Mus musculus with 9 samples.

Results

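The genes described here are 10 genes best known from germ cells, taken by symbol from the 53819 genes counted in every file: Brdt, Mybl1, Dazl, Ddx4, Mael, Asz1, Sycp1, Sycp3, Piwil2 and Hormad1. They were chosen by name, and in part because of the levels of Brdt and Mybl1 in these same libraries. The libraries were made from total RNA of C57BL/6J mouse embryos at the morula stage, when the blastomeres compact into a ball, after in vitro fertilization by the Nakagata protocol in CARD media. They fell into 3 groups of 3 libraries by the sire: control sires, sires given 6% EtOH (ethanol) and sires given 10% EtOH, with no genetic alteration named in any group. The study asked whether alcohol taken by the father before conception goes with altered gene expression in the embryo. The labels do not say how many embryos or sires stand behind a library, so the spread between libraries may be technical in part, and p-values measure only that spread.

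Germ cells use a set of genes that most other cells keep silent. Ddx4 and Dazl encode RNA-binding proteins of the germ line. Piwil2, Mael and Asz1 act in the piRNA pathway, in which small RNAs silence transposons. Sycp1, Sycp3 and Hormad1 encode proteins of the chromosome axis and the synaptonemal complex that hold homologous chromosomes together in meiosis. Mybl1 (A-MYB) is a transcription factor that switches on meiotic and piRNA genes in spermatocytes, and Brdt is the BET bromodomain protein of the testis. Outside the germ line many such promoters are held silent by DNA methylation and by the Polycomb complex PRC1.6, whose subunits MGA and MAX bind E-boxes and E2F6 binds E2F motifs. Embryos before implantation have little DNA methylation.

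The counts in a library summed to between 6263465 and 27619281. The header over the counts named RNA STAR in 4 files (control 2, 6% EtOH 1, 10% EtOH 1 and 10% EtOH 2) and was short in the other 5 (control 1, control 3, 6% EtOH 2, 6% EtOH 3 and 10% EtOH 3). Those 4 files held 19574710 to 27619281 counts and the short-header files 6263465 to 11026334. Header form and depth thus split the libraries alike and cannot be told apart. Libraries 6% EtOH 2 and 6% EtOH 3 stood apart, with the lowest scaling factors (0.840 and 0.836) and with 13.5 and 8.42 percent of the tested genes at 0 counts, against 1.497 to 7.30 percent in the other libraries. The 16 morula and early lineage genes, with Gata6 and Klf5 the most abundant, were all tested, with summed levels of 3236 to 3646 CPM in control, 3878 to 4148 CPM in 6% EtOH and 2348 to 4345 CPM in 10% EtOH libraries. By edgeR's quasi-likelihood test with Benjamini-Hochberg adjustment, 0 of 12488 genes (0 percent) passed 0.05 in any of the 3 comparisons. Before adjustment, p was under 0.05 for 779 genes (6.24 percent) for 6% EtOH against control, 267 (2.14 percent) for 10% EtOH against control and 665 (5.33 percent) for 10% against 6% EtOH. On the same genes DESeq2 passed 31, 10 and 34 (0.248, 0.0801 and 0.272 percent) and limma voom 0.

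The promoters of Brdt, Hormad1, Sycp1 and Sycp3 are shown because the results turn most on these genes and Mybl1, with each match to the E-box CACGTG or, on either strand, to the E2F motif GGCGGGA in capitals. They were taken from RefSeq on GRCm38.p6, another build than the GRCm39 of the counts, and run 5′ to 3′ along the gene's strand up to the annotated start, or for Brdt and Sycp3 to the first base that another annotated transcript covers, plus an E-box lying on that base in Brdt.
Brdt promoter, chr5:107330944-107331121, plus strand: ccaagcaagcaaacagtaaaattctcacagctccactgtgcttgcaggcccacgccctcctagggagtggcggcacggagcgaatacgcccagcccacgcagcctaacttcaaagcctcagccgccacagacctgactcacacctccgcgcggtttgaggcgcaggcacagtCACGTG
Hormad1 promoter, chr3:95559427-95559676, plus strand: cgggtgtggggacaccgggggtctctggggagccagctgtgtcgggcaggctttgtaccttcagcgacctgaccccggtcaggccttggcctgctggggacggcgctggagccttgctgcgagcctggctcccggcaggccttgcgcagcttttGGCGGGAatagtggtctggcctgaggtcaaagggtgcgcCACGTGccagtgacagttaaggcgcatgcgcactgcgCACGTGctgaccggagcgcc
Sycp1 promoter, chr3:102936101-102936350, minus strand: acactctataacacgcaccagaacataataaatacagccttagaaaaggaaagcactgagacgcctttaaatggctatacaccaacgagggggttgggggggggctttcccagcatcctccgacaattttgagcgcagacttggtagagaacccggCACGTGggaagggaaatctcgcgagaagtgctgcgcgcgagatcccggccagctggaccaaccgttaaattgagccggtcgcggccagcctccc
Sycp3 promoter, chr10:88459337-88459568, plus strand: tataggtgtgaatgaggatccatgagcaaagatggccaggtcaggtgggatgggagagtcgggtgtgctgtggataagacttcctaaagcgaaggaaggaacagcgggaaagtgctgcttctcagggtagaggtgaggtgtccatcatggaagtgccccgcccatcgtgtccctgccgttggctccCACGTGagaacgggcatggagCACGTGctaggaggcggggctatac
Of the 10 genes, 8 matched a RefSeq promoter entry by symbol, and Mybl1 and Piwil2 did not. In the 250 bases before the start, an E-box was found in 6 of the 8 (Brdt, Hormad1, Sycp1, Sycp3, Ddx4 and Mael), where 6.02 percent of the 32851 listed mouse promoters hold one. Hormad1 and Sycp3 held 2 each. The E2F motif was found in 3 of the 8 (Hormad1, Ddx4 and Mael), against 9.75 percent of all, and those 3 held both motifs, against 0.868 percent. Annotated exons or gene bodies cover all 250 bases of Ddx4, which is counted here all the same. The motifs do not overlap each other. CpG sites numbered 12 in Sycp3 to 31 in Ddx4, where the median promoter had 6. Both motifs contain a CpG, and the shares were not set against promoters of like CpG content. A match in these letters is a description of the sequence and says nothing of binding in the embryo.

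Counts for the 10 genes were low to moderate and present almost throughout. Each had counts in all 9 libraries except Dazl, which had none in control 3. All 10 passed the filter on low counts and entered the fit, and a test is given for the 8 other than Brdt and Mybl1. Levels are given as CPM, counts scaled to a common library size. Per kilobase of exon, the scale on which genes can be set against each other, the control libraries held most of Hormad1 (22.1 ± 10.9 CPM per kb, SD, n = 3), followed by Piwil2 (13.1 ± 8.85), Mael (11.02 ± 4.73), Asz1 (7.64 ± 5.28) and Dazl (7.29 ± 11.2). Lower came Ddx4 (4.51 ± 4.26), Brdt (3.55 ± 2.89), Sycp1 (1.79 ± 1.17), Sycp3 (1.51 ± 0.870) and Mybl1 (0.889 ± 0.496 CPM per kb). No neighbours in this order lay farther apart than their SDs. Since whole embryos were sequenced, fewer cells with a transcript and less RNA per cell cannot be told apart.

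**Figure D1:**
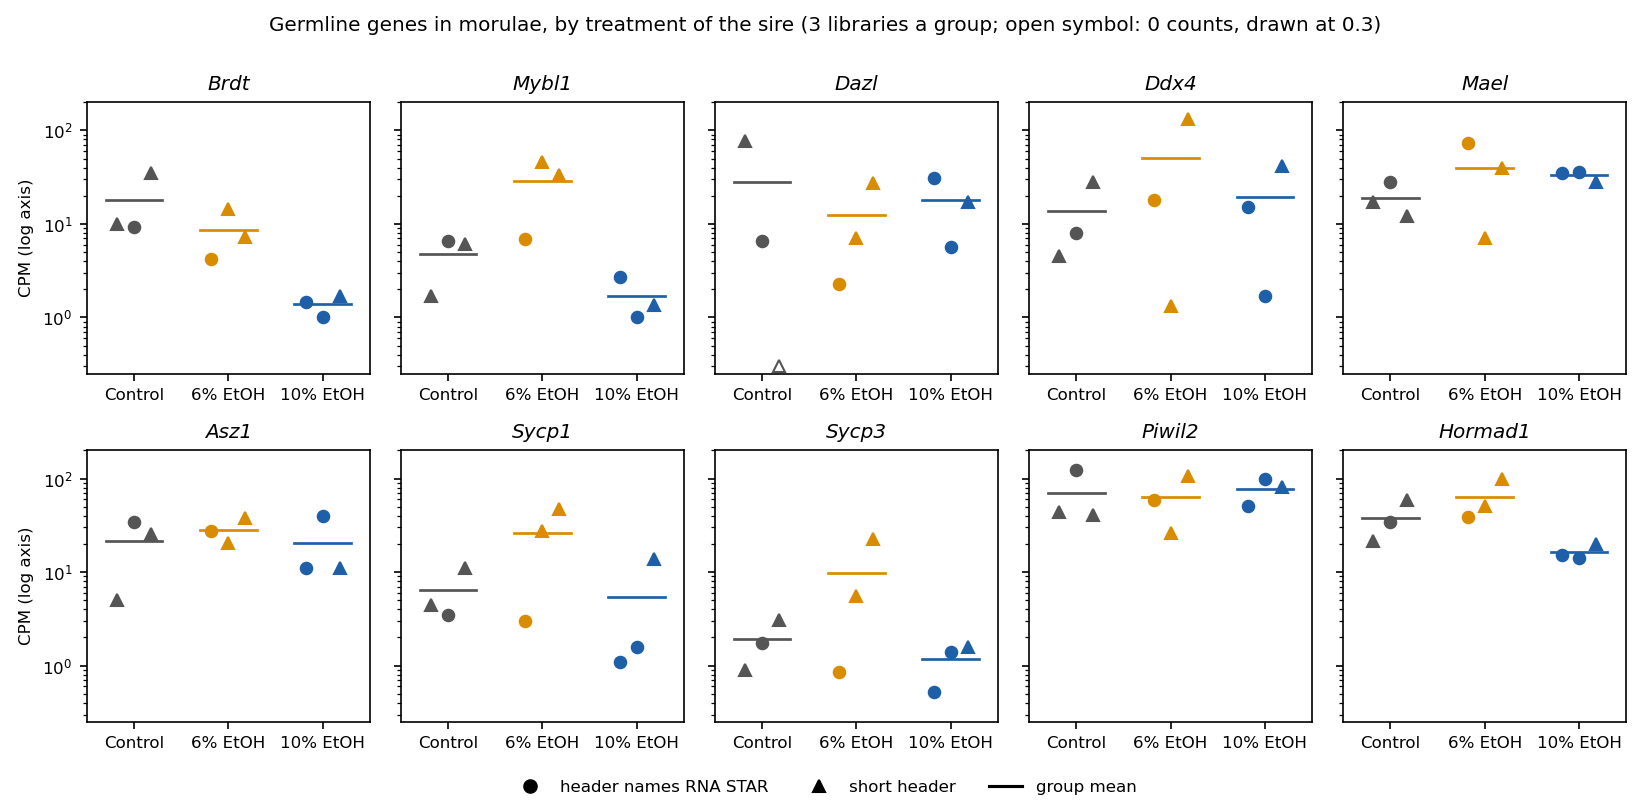
Each point is 1 library, with the treatment of the sire on the horizontal axis and CPM on a log vertical axis, circles for files whose header names RNA STAR, triangles for the short header and bars for group means. The 3 libraries of 10% EtOH sires lay at 1.02 to 1.71 CPM for Brdt, below all other libraries, while Dazl ranged from 0 to 77.0 CPM within the controls.

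Brdt was low in every morula library of 10% EtOH sires. It stood at 9.96, 9.28 and 35.2 CPM in the control libraries, at 4.19, 14.3 and 7.16 CPM with 6% EtOH and at 1.46, 1.02 and 1.71 CPM with 10% EtOH. The counts behind the 10% values were 28, 28 and 15 reads. The 10% group lay below both other groups with no overlap, and the 6% group overlapped the controls. The fitted log2 fold change was -3.69 ± 1.04 (SE) for 10% EtOH against control and -2.61 ± 0.99 for 10% against 6% EtOH. For 6% EtOH against control it was -1.09 ± 0.94, and -0.24 without control 3, the highest library. Since Brdt was taken up for these values they are a description, given without a test. Within the libraries with the RNA STAR header the value for 10% EtOH against control was -2.90, and within the short-header libraries -3.71, where the control or the 10% group is 1 library.

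Brd2 and Brd3, BET genes that most cells express, did not share that pattern. Both were more abundant than Brdt in each group, per kilobase as well. Brd2 had 239, 188 and 168 CPM with 10% EtOH against 271, 143 and 39.3 CPM in controls, and the groups overlapped. Brd3 had 73.3, 92.6 and 68.6 CPM with 10% EtOH against 75.0, 71.6 and 39.9 CPM in controls, again with overlap. Neither passed by edgeR in any comparison.

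**Figure D2:**
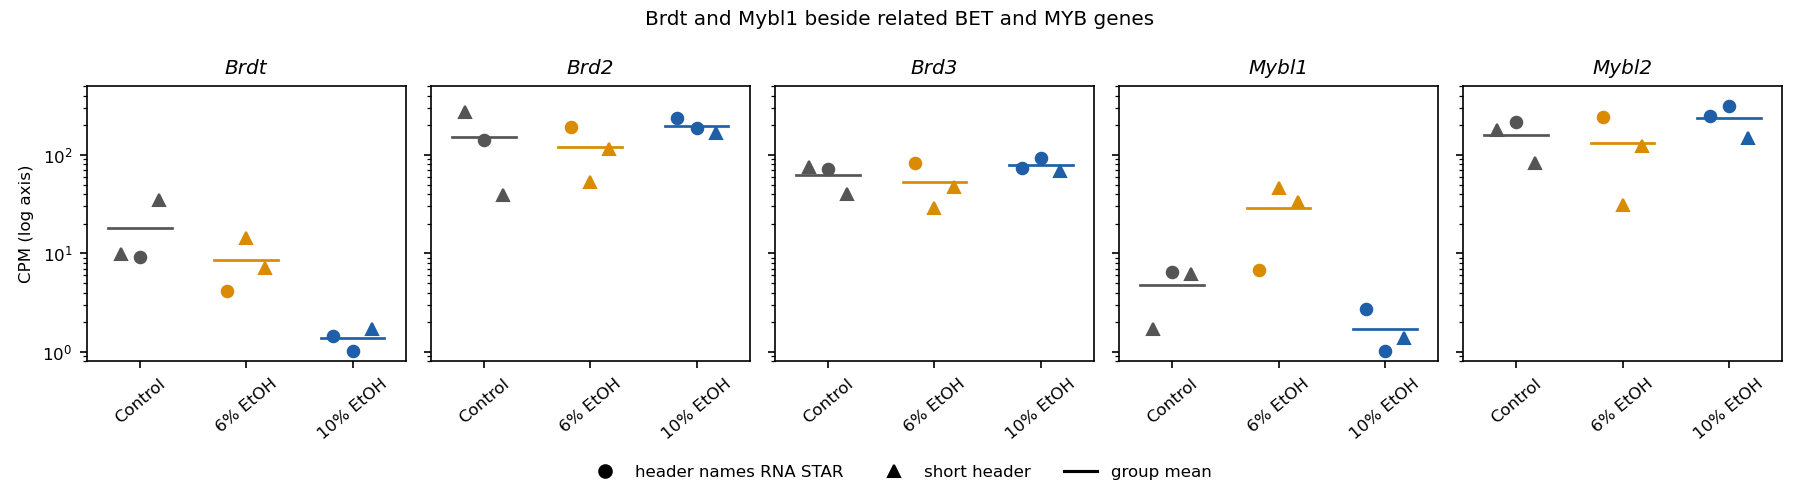
CPM on a log axis for Brdt with Brd2 and Brd3 and for Mybl1 with Mybl2, by treatment of the sire, 1 point per library, symbols by header form and bars for group means. Brd2, Brd3, Mybl1 and Mybl2 overlapped between 10% EtOH and control libraries, and Brdt did not.

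Mybl1 was highest in morulae of 6% EtOH sires and lowest with 10% EtOH, where it overlapped the controls. It stood at 1.71, 6.54 and 6.16 CPM in the control libraries, at 6.86, 45.6 and 33.6 CPM with 6% EtOH and at 2.72, 1.02 and 1.37 CPM with 10% EtOH. The high values were those of 6% EtOH 2 and 3, the libraries that stood apart, while 6% EtOH 1 lay just above the highest control. The log2 fold change was -4.06 ± 1.08 for 10% against 6% EtOH, -1.49 ± 0.98 for 10% EtOH against control and 2.57 ± 1.01 for 6% EtOH against control. Within the RNA STAR header these were -1.89, -1.81 and 0.07, and within the short header -4.83, -1.51 and 3.32. These values too led to the choice of the gene and carry no test. The other MYB genes differed from it in level. Mybl2 (B-MYB), which drives cell cycle genes in dividing cells, had 241, 30.9 and 124 CPM with 6% EtOH against 181, 217 and 82.4 CPM in controls, with overlap and with its lowest value in 6% EtOH 2. Myb was at 0 counts in 7 of the 9 libraries and reached 0.490 CPM.

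Hormad1, which marks unsynapsed chromosome axes and is the most abundant of the 10 per kilobase in controls, was low in the same libraries as Brdt. It had 15.2, 14.0 and 19.7 CPM with 10% EtOH, against 39.2, 50.6 and 98.4 CPM with 6% EtOH. The controls had 21.6, 34.2 and 58.8 CPM. The 10% group thus lay below both other groups without overlap, though its highest library was close to the lowest control. Neither difference passed over all genes: the log2 fold change was -1.94 ± 0.65 (SE) for 10% against 6% EtOH (edgeR adjusted p = 0.806) and -1.23 ± 0.63 for 10% EtOH against control (0.9999). The first was -1.43 within the RNA STAR header and -1.91 within the short header. For 6% EtOH against control Hormad1 had 0.72 ± 0.63 (adjusted p = 0.868), with overlap.

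Groups without overlap were not rare in these data, and they also ran the other way, with 548 genes (4.39 percent) higher for 10% EtOH against control and 756 (6.05 percent) higher for 10% against 6% EtOH. For 10% against 6% EtOH, 450 of 12488 genes (3.6 percent) lay lower without overlap, and 3 of the 10 germline genes did, namely Brdt, Mybl1 and Hormad1. For 10% EtOH against control the count was 458 genes (3.67 percent), with Brdt and Hormad1 among them. For 6% EtOH against control 418 genes (3.35 percent) lay higher without overlap, with Mybl1 among them. Brdt and Mybl1 were chosen for such values, so nothing is read from these shares. The comparisons with control share the 3 control libraries.

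**Figure D3:**
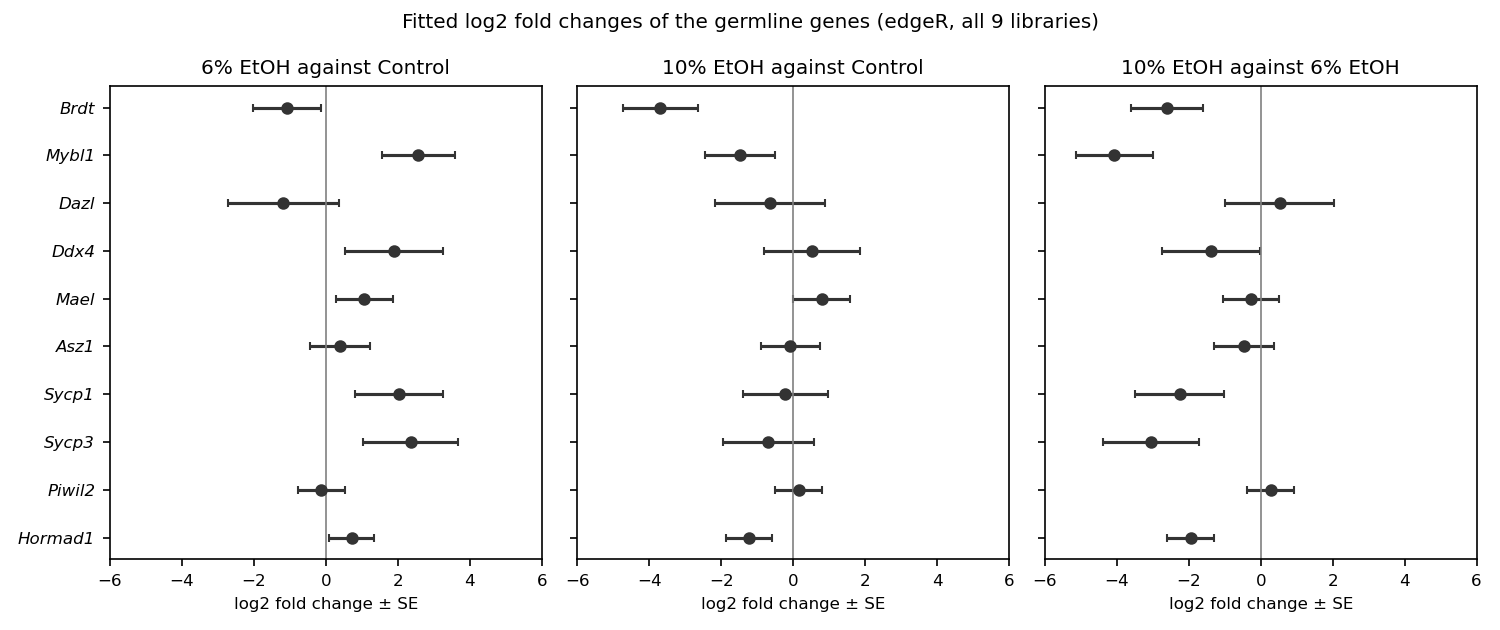
Fitted log2 fold changes of the 10 genes on the horizontal axis, 1 panel per comparison, from edgeR's fit to all 9 libraries. Bars give the standard error derived from the F statistic of its test. Against 6% EtOH, the 10% EtOH values of Mybl1 (-4.06), Sycp3 (-3.05), Brdt (-2.61), Sycp1 (-2.25) and Hormad1 (-1.94) were the lowest, and by edgeR none of the 8 genes that carry a test passed over all genes.

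Sycp1, the transverse filament of the synaptonemal complex, was high in 2 libraries of the 6% group. It had 2.96, 27.3 and 47.3 CPM with 6% EtOH against 4.41, 3.50 and 11.1 CPM in controls, and 1.10, 1.57 and 13.7 CPM with 10% EtOH. All 5 short-header libraries (4.41 to 47.3 CPM) lay above all 4 libraries with the RNA STAR header (1.10 to 3.50 CPM), as did 599 of the 12488 genes tested (4.80 percent). The short-header libraries were also the ones with fewer counts in all. The log2 fold change was 2.03 ± 1.22 for 6% EtOH against control (adjusted p = 0.822) and -2.25 ± 1.23 for 10% against 6% EtOH (0.806). The first was 1.19 without 6% EtOH 3. The second was -1.40 without 6% EtOH 3 and -4.23 without 10% EtOH 3. With header form as a term in the fit the values were 1.32 (0.694) and -1.61 (0.955). Against control, the 10% EtOH value was -0.23 ± 1.18 (0.9999), with -2.21 without 10% EtOH 3 and 0.44 without control 3. Sycp2, a partner of Sycp3 in the lateral element, followed the header form more widely: 14.7 to 103 CPM in short-header libraries against 0.254 to 2.25 CPM in the others. It is named here after its values were seen.

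Sycp3, the main protein of the lateral element, had 0.847, 5.54 and 22.8 CPM with 6% EtOH, against 0.898, 1.73 and 3.08 CPM in controls. With 10% EtOH it had 0.523, 1.39 and 1.596 CPM. Only 6% EtOH 2 and 3 exceeded the highest control. The log2 fold change was 2.36 ± 1.31 for 6% EtOH against control (adjusted p = 0.822), or 0.67 without 6% EtOH 3. It was -3.05 ± 1.34 for 10% against 6% EtOH (0.806), or -1.35 without 6% EtOH 3, and -0.70 ± 1.26 for 10% EtOH against control (0.9999). In the annotation 52.2 percent of the exon length of Sycp3 overlaps exons of Chpt1, a choline phosphotransferase gene on the opposite strand. Without a stated strand setting, reads of the 2 genes cannot be told apart there. Chpt1 had 110, 79.4 and 177 CPM with 6% EtOH against 93.3, 50.8 and 83.3 CPM in controls. Library 6% EtOH 3 was the highest for both genes, while 6% EtOH 1 had 110 CPM of Chpt1 and 0.847 CPM of Sycp3. In 6% EtOH 2 they had 79.4 and 5.54 CPM. Whether reads of Chpt1 entered the counts of Sycp3 was not tested. For the other 9 genes no overlapping exon of another gene is annotated.

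The genes of the RNA-binding proteins Dazl and Ddx4 spread widely within each group. Dazl, a translational regulator, had 2.29, 7.06 and 27.6 CPM with 6% EtOH, and 30.7, 5.70 and 17.0 CPM with 10% EtOH. The controls had 77.0, 6.54 and 0 CPM, the last a count of 0, where 3 counts would be 0.440 CPM. Its log2 fold change of -0.65 ± 1.52 for 10% EtOH against control (adjusted p = 0.9999) was 2.40 without control 1. For 6% EtOH against control the value was -1.18 ± 1.53 (0.909), or 1.84 without control 1, and for 10% against 6% EtOH 0.53 ± 1.52 (0.945). Leaving out control 1 thus turned the direction of both comparisons with control.

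Ddx4 (VASA), an RNA helicase of germ cells, had 18.0, 1.34 and 132 CPM with 6% EtOH, and 15.3, 1.68 and 41.2 CPM with 10% EtOH. The controls had 4.57, 7.95 and 28.3 CPM. In each treated group 1 library was below all controls and 1 above them. The log2 fold change was 1.90 ± 1.37 for 6% EtOH against control (adjusted p = 0.837), or -0.45 without 6% EtOH 3. It was 0.51 ± 1.33 for 10% EtOH against control (0.9999), or -0.66 without 10% EtOH 3. For 10% against 6% EtOH it was -1.38 ± 1.35 (0.840), or 0.97 without 6% EtOH 3. The spread of Dazl between libraries of a group was among the wider ones: its biological coefficient of variation was 1.20, above that of 80.3 percent of tested genes. That of Ddx4 was 1.05, above 70.0 percent, and the median gene had 0.851.

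The piRNA genes among the 10 showed no group difference beyond the spread. Piwil2 (MILI), a PIWI protein that binds piRNAs in germ cells, had 58.8, 26.0 and 106 CPM with 6% EtOH, and 51.3, 100.005 and 80.9 CPM with 10% EtOH. The controls had 44.2, 123 and 40.5 CPM, and the 3 groups overlapped. Its log2 fold change was 0.16 ± 0.65 for 10% EtOH against control (adjusted p = 0.9999), -0.12 ± 0.65 for 6% EtOH against control (0.982) and 0.28 ± 0.65 for 10% against 6% EtOH (0.930). Mael, a component of the piRNA granules, had 35.4, 35.9 and 27.8 CPM with 10% EtOH against 17.0, 28.1 and 12.2 CPM in controls (0.79 ± 0.78, adjusted p = 0.9999). With 6% EtOH it had 73.5, 7.06 and 39.6 CPM, the highest and the lowest of all 9 libraries (1.07 ± 0.79 against control, 0.841). Against 6% EtOH, the 10% value was -0.28 ± 0.78 (0.944). Asz1 (GASZ), which anchors the piRNA machinery to mitochondria, had 10.9, 39.3 and 11.2 CPM with 10% EtOH against 5.06, 34.1 and 25.7 CPM in controls (-0.08 ± 0.83, 0.9999). With 6% EtOH it had 27.4, 20.4 and 37.4 CPM (0.40 ± 0.83 against control, 0.945), and the 10% against 6% value was -0.47 ± 0.83 (0.906). Piwil2 and Hormad1 were the steadiest of the 10, with biological coefficients of variation of 0.593 and 0.581.

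For 6% EtOH against control 7 of the 10 germline genes lay above 0, with a median log2 fold change of 0.89, where 49.5 percent of all tested genes lay above 0 with a median of -0.01. For 10% EtOH against control 7 of 10 lay below 0 (median -0.44), against 52.9 percent of all (median -0.05). For 10% against 6% EtOH 8 of 10 lay below 0 (median -1.66), against 50.5 percent of all (median -0.02). Without Brdt and Mybl1, which were chosen for their values, 6 of the other 8 lay above 0 for 6% EtOH against control (median 0.89), 5 lay below 0 for 10% EtOH against control (median -0.15) and 6 lay below 0 for 10% against 6% EtOH (median -0.93). None of the 8 passed by edgeR. The summed level of the 10 genes was 234, 205 and 552 CPM with 6% EtOH, and 165, 202 and 216.1 CPM with 10% EtOH. In controls it was 186, 255 and 221 CPM, so that 6% EtOH 3 alone lay outside the range of the rest by a wide margin.

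The 10 genes were also compared pair by pair across the 9 libraries. Of the 45 pairs, 29 had a Pearson r of log2 CPM above 0, 10 had 0.5 or more and the median was 0.19. The share over all pairs of tested genes was not computed, so nothing is read from these counts. As a description over 9 libraries that differ in depth and header form, Sycp1 and Sycp3 had r = 0.88 and Spearman's rho = 0.85. Mybl1 and Hormad1 had r = 0.86 and rho = 0.82. At the other end Brdt and Mael had r = -0.62 and rho = -0.68. Among 10959 other tested genes with a full symbol, those most like Brdt were Rpl32l (r = 0.91), Snn (0.89) and Glud-ps (0.89), and those most like Mybl1 were Lipo2 (0.96), Srp54b (0.93) and Tsg101 (0.93). The others stayed at or below 13.6 CPM, while Tsg101, an ESCRT gene, had 55.6, 116 and 77.6 CPM with 6% EtOH against 37.9, 47.1 and 57.0 CPM in controls. These correlations are the highest of 10959 for each gene and rest on the Brdt and Mybl1 values that led to their choice. They are a description only.

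Of the wider meiotic chromosome list of 28 genes, 20 were tested, Sycp1, Sycp3 and Hormad1 among them, and 0 passed. For 6% EtOH against control 15 of 20 lay above 0, with a median of 1.43, against 49.5 percent of all tested genes (median -0.01). For 10% against 6% EtOH 15 lay below 0, with a median of -1.25, against 50.5 percent of all (median -0.02). Summed over the list, 6% EtOH 1 had 142 CPM, below the controls at 155 to 287 CPM. Libraries 6% EtOH 2 and 3, which stood apart, had 586 and 549 CPM. For 10% EtOH against control the median was 0.04. In some of these genes 1 library was far above the rest. Dmc1, the meiotic recombinase, had 245 CPM in 6% EtOH 2 and 2.56 to 23.8 CPM in the other 8 libraries. Psmc3ip (HOP2), its partner, had 109 CPM in 6% EtOH 3 and 0.548 to 13.1 CPM elsewhere. Mei1 had 0.423, 14.5 and 0.551 CPM with 6% EtOH, and 1.46, 4.17 and 1.71 CPM with 10% EtOH, against 0, 0.217 and 0 CPM in controls, so both treated groups lay above the controls at very low levels (adjusted p = 0.799 and 0.9999). Tex11 likewise had 0.836, 0.804 and 6.27 CPM with 10% EtOH against 0.163, 0.289 and 0.293 CPM in controls (adjusted p = 0.9999). Syce2, a central element protein, had 16.6, 27.5 and 20.5 CPM with 6% EtOH against 78.1, 39.0 and 50.9 CPM in controls, without overlap (-1.38 ± 0.61, adjusted p = 0.799). Of the genes that act at the entry into meiosis or in break formation, Ythdc2 was present in all 9 libraries, at 8.10 to 63.6 CPM. Spo11, which makes the meiotic breaks, had no count in any library, and Stra8 reached 0.245 CPM, Meiosin 0.661 CPM and Prdm9 1.37 CPM.

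The piRNA list of 21 genes had 16 tested and 0 passed. Its median log2 fold changes were -0.16 for 6% EtOH against control, 0.07 for 10% EtOH against control and -0.38 for 10% against 6% EtOH. Fkbp6, a co-chaperone in piRNA biogenesis, had the highest mean, with 77.8, 68.6 and 126 CPM with 10% EtOH against 77.7, 113 and 83.7 CPM in controls. Exd1 had 4.70, 13.7 and 285 CPM with 6% EtOH against 4.57, 4.23 and 1.47 CPM in controls (4.87 ± 1.39, adjusted p = 0.799), and DESeq2 passed 1 gene of the list in this comparison. Piwil1, Piwil4, Tdrd6 and Henmt1, which act in postnatal or fetal testis, stayed at or below 0.764 CPM in every library. Of the 20 germ cell regulators 11 were tested and 0 passed. Dppa3 (Stella), a maternal factor that guards methylation in the zygote and is also found in early embryos, had 1491, 3393 and 4027 CPM with 6% EtOH against 1025, 783 and 2253 CPM in controls (1.13 ± 0.50, adjusted p = 0.799). Tex15 had 4.97, 1.79 and 9.58 CPM with 10% EtOH against 64.1, 11.2 and 21.1 CPM in controls, without overlap (-2.57 ± 1.09, adjusted p = 0.9999). Tfap2c, which the early embryo also uses, had 327, 335 and 134 CPM with 10% EtOH against 216.3, 284 and 98.8 CPM in controls. Nanos2, Nanos3 and Prdm1 stayed at or below 1.86 CPM.

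The genes that keep germline promoters silent were all measured. All 23 of the PRC1.6 and partner list were tested and 0 passed, with medians of 0.10 for 6% EtOH against control, 0.10 for 10% EtOH against control and -0.03 for 10% against 6% EtOH. Pcgf6, the PRC1.6 ring finger subunit, had 141, 364 and 1150 CPM with 6% EtOH against 54.9, 136 and 244 CPM in controls (1.93 ± 0.74, adjusted p = 0.799), and 106, 105 and 186 CPM with 10% EtOH. Dnmt3l, the cofactor of the de novo methyltransferases, had 27.4, 10.5 and 7.49 CPM with 6% EtOH against 85.7, 72.5 and 21.7 CPM in controls (-1.98 ± 0.78, adjusted p = 0.799). Wdr5 and Tfdp1 had the highest means, 429 and 399.9 CPM. E2f6 had 83.0, 139 and 62.5 CPM with 10% EtOH against 59.0, 85.4 and 74.5 CPM in controls, and Mga had 133, 150 and 285 CPM against 219, 399 and 476 CPM. Both overlapped between the groups.

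Of the 16 morula genes 0 passed. Fgf4, a growth factor of the inner cell mass, had the smallest unadjusted p of the list for 10% EtOH against control (0.00774), with 9.51, 7.90 and 13.2 CPM with 10% EtOH against 92.8, 83.5 and 59.8 CPM in controls, without overlap (-2.95 ± 0.93, adjusted p = 0.9999), and 7.15, 15.1 and 118 CPM with 6% EtOH. Krt18 had 50.9, 73.2 and 24.1 CPM with 10% EtOH against 69.7, 647 and 50.4 CPM in controls, where control 2 alone was high. Dppa4, which with Dppa2 is needed for the priming of developmental promoters, had 166, 114 and 227 CPM with 10% EtOH against 89.7, 723 and 986 CPM with 6% EtOH (-1.82 ± 0.78, adjusted p = 0.806).

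Markers of other cells that could bring germline transcripts were mostly low. Of 16 sperm and spermatid genes, 8 had no count in any library, among them Prm2, Tnp1, Tnp2 and Odf1, and none was tested. Their summed level was 0.955 to 3.85 CPM with 6% EtOH and 0 to 0.941 CPM with 10% EtOH, against 0.147 to 8.53 CPM in controls. Tssk6 made up most of the highest control sum, with 7.91 CPM in control 2, and Ldhc reached 1.06 CPM in 6% EtOH 1. Akap4 made up most of the highest 6% EtOH sum, with 3.52 CPM in 6% EtOH 3 and no count in any other library. Prm1 had counts in 10% EtOH 1 alone, at 0.105 CPM. Of 17 oocyte genes 8 were tested and 0 passed, with sums of 11.8 to 18.8 CPM with 6% EtOH and 15.4 to 49.2 CPM with 10% EtOH, against 14.7 to 34.4 CPM in controls. Nobox, Figla and Oosp2 had no count. Nlrp5, of the subcortical maternal complex, had 14.3, 1.64 and 8.32 CPM with 10% EtOH against 0.593, 0 and 0.220 CPM with 6% EtOH (4.72 ± 1.52, adjusted p = 0.806). Of 14 cumulus and granulosa genes only Nr5a2, which the early embryo also expresses, and Amhr2 were tested, and 0 passed. The list summed to 234 to 560 CPM with 6% EtOH and 337 to 408 CPM with 10% EtOH, against 255 to 313 CPM in controls, of which Nr5a2 made up 230.4 to 546 CPM over the 9 libraries. Amhr2, a granulosa marker, had 3.81, 60.7 and 11.3 CPM with 6% EtOH, and 15.1, 6.54 and 69.7 CPM with 10% EtOH, against 0.816, 5.46 and 14.8 CPM in controls, with overlap (1.85 ± 1.25 and 2.12 ± 1.26, adjusted p = 0.837 and 0.9999). Fshr, Inhba, Has2, Ptx3 and Col1a2 had no count. Zp3, a zona pellucida gene, had 9.62, 2.56 and 2.74 CPM with 10% EtOH against 1.88, 1.45 and 0.440 CPM in controls, without overlap. Ooep had 0.466, 1.91 and 1.32 CPM with 6% EtOH against 5.55, 20.7 and 2.35 CPM in controls, also without overlap (-2.97 ± 1.26, adjusted p = 0.799). The median log2 fold change of the 8 tested oocyte genes was 1.59 for 10% EtOH against control, with 6 above 0 and 2 below. The part of any of these cells in the results was not tested.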

How the data were processed

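RNA of morulae was sequenced in 9 libraries. The deposited files hold raw counts per gene, made by the authors with featureCounts on GRCm39, per the submitters' processing notes, which also name DESeq2. Per the file headers RNA STAR made the alignments behind 4 files. The aligner of the other 5, the annotation and the strand setting are not given in the sources used here. No column belonged to another sample. Of the 53819 rows, 1442 carry an Ensembl identifier in place of a symbol.

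All 9 libraries were fitted together in edgeR 4.0.16 (R 4.3.3) by the quasi-likelihood test, with TMM scaling and filterByExpr, which left 12488 genes. P-values were adjusted by Benjamini-Hochberg over all of them at 0.05. CPM used TMM-scaled library sizes, and log2 CPM for correlations a prior count of 2. Fold changes are log2, with the SE derived as the absolute log2 fold change over the square root of the test's F statistic. Alternatives used DESeq2 1.42.0 and limma 3.58.1, other scalings and filters, header form and left-out libraries. The fit was also run on simulated counts with planted changes, and no result of that run is used here. Exon lengths and overlaps came from GENCODE M21 on GRCm38, another build, and promoters from RefSeq. Replicate numbers follow the order of deposition. The lowest chi-square per degree of freedom between any 2 libraries was 116, so none repeated another. A count of 0 allows up to 3 counts, and this covers counting error only.

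The 10 genes and all lists were chosen with earlier results of these data known. Beside the 10 genes, the text names Brd2, Brd3, Myb and Mybl2, up to 2 genes per list of smallest p in each comparison, up to 2 of highest mean and the 3 most like Brdt and Mybl1. Sycp2, Chpt1, Dmc1, Ythdc2, E2f6, Mga, Akap4 and the genes named as near or at 0 were named after their values were seen.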

Additional observations from a re-analysis of the deposited data

Results flagged for a closer look

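For Mybl1 all 3 libraries of 6% EtOH sires lay above the control mean and all 3 of 10% EtOH sires below it, with a log2 fold change of -4.06 for 10% against 6% EtOH. Because Mybl1 was chosen for its values, this difference was not tested. For Hormad1 the libraries lay on opposite sides of the control mean in the same way, with a log2 fold change of -1.94 for 10% against 6% EtOH. That difference did not pass in edgeR's fit over all genes (adjusted p = 0.806). The lowest 6% EtOH library of Hormad1 had 39.2 CPM against a control mean of 38.2 CPM, and control 3 had 58.8 CPM. Only the 10 germline genes were searched for this pattern, so its share over all tested genes is not given.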

How the results depend on the processing

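The number of genes passing 0.05 was 0 in each comparison with the main settings, and 0 to 0 when any 1 library was left out. In the order 6% EtOH against control, 10% EtOH against control and 10% against 6% EtOH, it was 31, 10 and 34 with DESeq2, and 140, 47 and 147 with no filter beyond 1 count. It was 3, 9 and 4 in the libraries with the RNA STAR header alone, and 48, 2 and 1 in the short-header libraries alone, where at least 1 group is a single library assumed to vary like the others. The cause of these differences was not tested. Across 456 refits of the 8 genes that carry a test, 0 passed and 37 changed sign. Brdt and Mybl1 kept their sign in all 19 alternatives of each comparison, with 10% EtOH against control at -4.00 to -2.78 for Brdt (-2.78 without control 3) and 6% EtOH against control at 0.07 to 3.32 for Mybl1.

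With limma voom the sign turned for Dazl (0.39 for 6% EtOH and 1.49 for 10% EtOH against control), Ddx4 (-0.23) and Asz1 (0.074), both for 10% EtOH against control. With header form in the fit it turned for Piwil2 with 6% EtOH (0.0043) and Dazl with 10% EtOH (0.60). With the RNA STAR header alone it turned for Asz1 (-0.31), Sycp1 (-0.24) and Sycp3 (-1.03) with 6% EtOH, for Dazl (1.47) and Piwil2 (-0.71) with 10% EtOH, and for Sycp3 for 10% against 6% EtOH (0.17). With the short header alone it turned for Piwil2 with 6% EtOH (0.63), Sycp1 with 10% EtOH (0.82), and Dazl (-0.029) and Mael (0.25) for 10% against 6% EtOH.

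Leaving out 1 library at a time, values against control spanned 0 with 6% EtOH for Dazl (-2.65 to 1.84), Ddx4 (-0.45 to 2.97), Asz1 (-0.088 to 0.89) and Piwil2 (-0.73 to 0.59). With 10% EtOH they did so for Dazl (-1.30 to 2.40), Ddx4 (-0.66 to 1.61), Asz1 (-0.97 to 0.44), Sycp1 (-2.21 to 0.44) and Piwil2 (-0.12 to 0.88). For 10% against 6% EtOH this held for Dazl (-0.083 to 2.01), Ddx4 (-2.55 to 0.97), Mael (-0.77 to 0.52) and Piwil2 (-0.072 to 0.89). No paired analysis was possible because the labels give the groups no shared replicate numbers. Counts of Brdt and Mybl1 fell to 15 and 12 reads in their lowest libraries, which limits how closely levels with 10% EtOH can be stated.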
